A study of Mus musculus with 2 samples.

Results

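The 10 genes examined here, Sp8, Prox1, Nr2f2, Adarb2, Six3, Isl1, Ebf1, Meis2, Gsx2 and Zfp503, mark or specify the GABAergic lineages of the caudal and lateral ganglionic eminences. They were taken by symbol, and all 10 were present among the 32285 genes of the deposited count tables. Their transcripts were counted in single cells of the dorsal telencephalon of wild-type (WT) mouse embryos at embryonic day (E) 14.5. The 2 libraries came from control animals of the EomesDot line and are called replicates 2 and 4 after their titles. P-values below measure only the spread between these 2 libraries, which may be technical. Both belonged to 1 group, so cell classes were compared within and across these libraries and no groups of animals could be compared. The study's methods describe C57BL/6J embryos and do not say how these relate to the EomesDot line, and whether each library was 1 embryo or a pool is not stated in the labels. In the order given, their identifiers in the count tables were ENSMUSG00000048562, ENSMUSG00000010175, ENSMUSG00000030551, ENSMUSG00000052551, ENSMUSG00000038805, ENSMUSG00000042258, ENSMUSG00000057098, ENSMUSG00000027210, ENSMUSG00000035946 and ENSMUSG00000039081. The coordinates given with each gene below are its RefSeq span on GRCm38.p6.

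The ganglionic eminences are transient swellings of the ventral telencephalon in which GABAergic neurons are born, that is, neurons that release the inhibitory transmitter GABA. The medial eminence (MGE) gives rise to cortical interneurons that express Lhx6, the caudal eminence (CGE) to other cortical interneurons, and the lateral eminence (LGE) to the projection neurons of the striatum and to interneurons of the olfactory bulb. Gsx2 is a homeodomain factor of LGE and CGE progenitors, and Meis2 a TALE-homeodomain factor of the LGE and its offspring that is also made in the pallium. The zinc-finger factor Sp8, the homeodomain factor Prox1 and the nuclear receptor Nr2f2 (COUP-TFII) act in CGE-derived interneurons, where Adarb2, an RNA-binding relative of the ADAR editing enzymes, is a widely used marker. Isl1, a LIM-homeodomain factor, Ebf1, a helix-loop-helix factor, and the zinc-finger protein Zfp503 (Nolz1) belong to striatal projection neurons of the direct pathway, which carry the dopamine receptor Drd1, or to striatal neurons more widely. Six3 is a homeodomain factor needed for indirect-pathway neurons, which carry Drd2. The dorsal telencephalon itself makes excitatory neurons, and its GABAergic interneurons are known to arrive by migration from the eminences.

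The start regions of 4 of these genes are shown because of how their UMIs were shared between single cells below. Isl1 and Zfp503 were often found together, Zfp503 also occurred with Six3, and Sp8 shared no cell with Isl1 or Zfp503 but 11 with Six3. Each window is RefSeq's 250 bases before to 50 bases after a transcript start on GRCm38.p6, the assembly also named mm10. Isl1 lies at chr13:116309639-116309938 on the minus strand, Zfp503 at chr14:21989552-21989851 on the minus strand, Six3 at chr17:85620584-85620883 on the plus strand and the first listed of 3 Sp8 windows at chr12:118846079-118846378 on the plus strand. Capitals mark TGACAG, the core bound by MEIS factors, on either strand.
Isl1: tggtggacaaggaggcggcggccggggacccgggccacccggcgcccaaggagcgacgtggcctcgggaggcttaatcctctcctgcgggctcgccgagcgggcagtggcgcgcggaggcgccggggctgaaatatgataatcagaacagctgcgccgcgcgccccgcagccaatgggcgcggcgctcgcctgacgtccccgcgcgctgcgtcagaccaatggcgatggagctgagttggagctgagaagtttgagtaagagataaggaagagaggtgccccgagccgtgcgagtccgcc
Zfp503: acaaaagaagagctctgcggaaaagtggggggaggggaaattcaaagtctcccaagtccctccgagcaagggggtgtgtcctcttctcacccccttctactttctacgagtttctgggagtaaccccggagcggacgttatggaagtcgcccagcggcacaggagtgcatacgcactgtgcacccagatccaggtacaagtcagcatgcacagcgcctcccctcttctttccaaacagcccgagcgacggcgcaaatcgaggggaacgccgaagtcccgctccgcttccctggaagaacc
Six3: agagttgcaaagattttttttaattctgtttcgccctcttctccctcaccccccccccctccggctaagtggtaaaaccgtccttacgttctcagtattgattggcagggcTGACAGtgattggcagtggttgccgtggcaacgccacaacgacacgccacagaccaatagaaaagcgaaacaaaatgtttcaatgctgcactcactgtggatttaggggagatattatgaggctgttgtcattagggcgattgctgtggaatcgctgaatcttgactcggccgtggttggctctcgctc
Sp8: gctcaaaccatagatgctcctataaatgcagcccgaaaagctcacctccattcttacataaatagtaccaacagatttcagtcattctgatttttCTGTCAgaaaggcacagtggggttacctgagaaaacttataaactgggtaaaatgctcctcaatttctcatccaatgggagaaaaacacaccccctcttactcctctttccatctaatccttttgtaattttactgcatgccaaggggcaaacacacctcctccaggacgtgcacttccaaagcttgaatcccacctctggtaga
The letters TGACAG were at position -139 from the start of Six3 and, on the opposite strand, at position -155 from this start of Sp8, and 19.2% of all 32851 RefSeq windows held them. Of the 14 windows of the 10 genes only these 2 held them, and the other listed Sp8 windows did not. Over all 14 windows of the 10 genes, the homeodomain core TAATTA was in 2 windows (Sp8 and Adarb2), against 5.29% of all windows. GGGCGG, the core of SP family sites, was in 5 windows (of Sp8, Prox1, Adarb2 and Gsx2) against 35.7%, and CCCNNGGG, the EBF core, was in 1 (Gsx2) against 13.7%. GGGCGG could lie in either strand and did not overlap the other motifs here. None of these letters was in the windows of Isl1, Zfp503, Nr2f2, Ebf1 or Meis2, and a match or its absence describes these windows only.

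Replicate 2 held 1199 retained cells with a median of 30810 UMIs, the molecular tags that each mark 1 captured transcript, and replicate 4 held 1923 with a median of 22826. Of all 4301 barcodes, 3 occurred in both libraries, 1 of them among retained cells. Clusters were named without any of the 10 genes. The 3 clusters called GABAergic neuron-like had 8 or 9 of 9 markers raised, both radial glial cell (RGC)-like clusters 9 of 9, the 2 intermediate progenitor cell (IPC)-like clusters 7 or 8 of 8, and the excitatory neuron-like clusters 5 to 8 of 10. Of the excitatory clusters, 1 with 344 cells had 7 of 8 IPC markers raised as well and 1 with 92 cells had 6 of 8. GABAergic neuron-like cells numbered 83 in replicate 2 and 231 in replicate 4, and the libraries differed most in striatal projection neuron-like cells, with 1 and 61. This difference touches every mean over the 2 libraries given below for Six3, Isl1, Ebf1 and Zfp503, so each library's value is printed. No GABAergic sub-cluster earned the name CGE interneuron-like under any clustering tried, and striatal projection neuron-like cells were at most 2 in replicate 2, so no test between MGE, CGE and striatal sub-classes could be run.

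The 10 genes differed in how far their UMIs were held by GABAergic neuron-like cells. Adarb2 and Isl1 were concentrated there in both libraries. Of all Adarb2 UMIs in retained cells, GABAergic neuron-like cells held 69.5% in replicate 2 and 77.2% in replicate 4, although they were a small minority of the cells. Of the Isl1 UMIs they held 81.8% of only 11 in replicate 2 and 95.7% of 437 in replicate 4. Gsx2 was sparse, and 53.8% of its 13 and 73.7% of its 57 UMIs lay in these cells. The shares were close to each other for Sp8, at 36.9% and 32.3%. Meis2 and Nr2f2, at 3.50% and 12.9% and at 4.68% and 12.3%, lay mostly in other classes. So did Prox1, with 15 of its 579 UMIs in GABAergic neuron-like cells of replicate 2 and 225 of 968 in those of replicate 4. Six3, Ebf1 and Zfp503 changed place between the libraries. In replicate 2 GABAergic neuron-like cells held 0%, 0.067% and 4.42% of their UMIs, and in replicate 4 they held 70.3%, 70.1% and 72.6%. All 91 Six3 UMIs of replicate 2 were in hem or choroid plexus-like cells, which border the pallium at the dorsal midline.

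**Figure D1:**
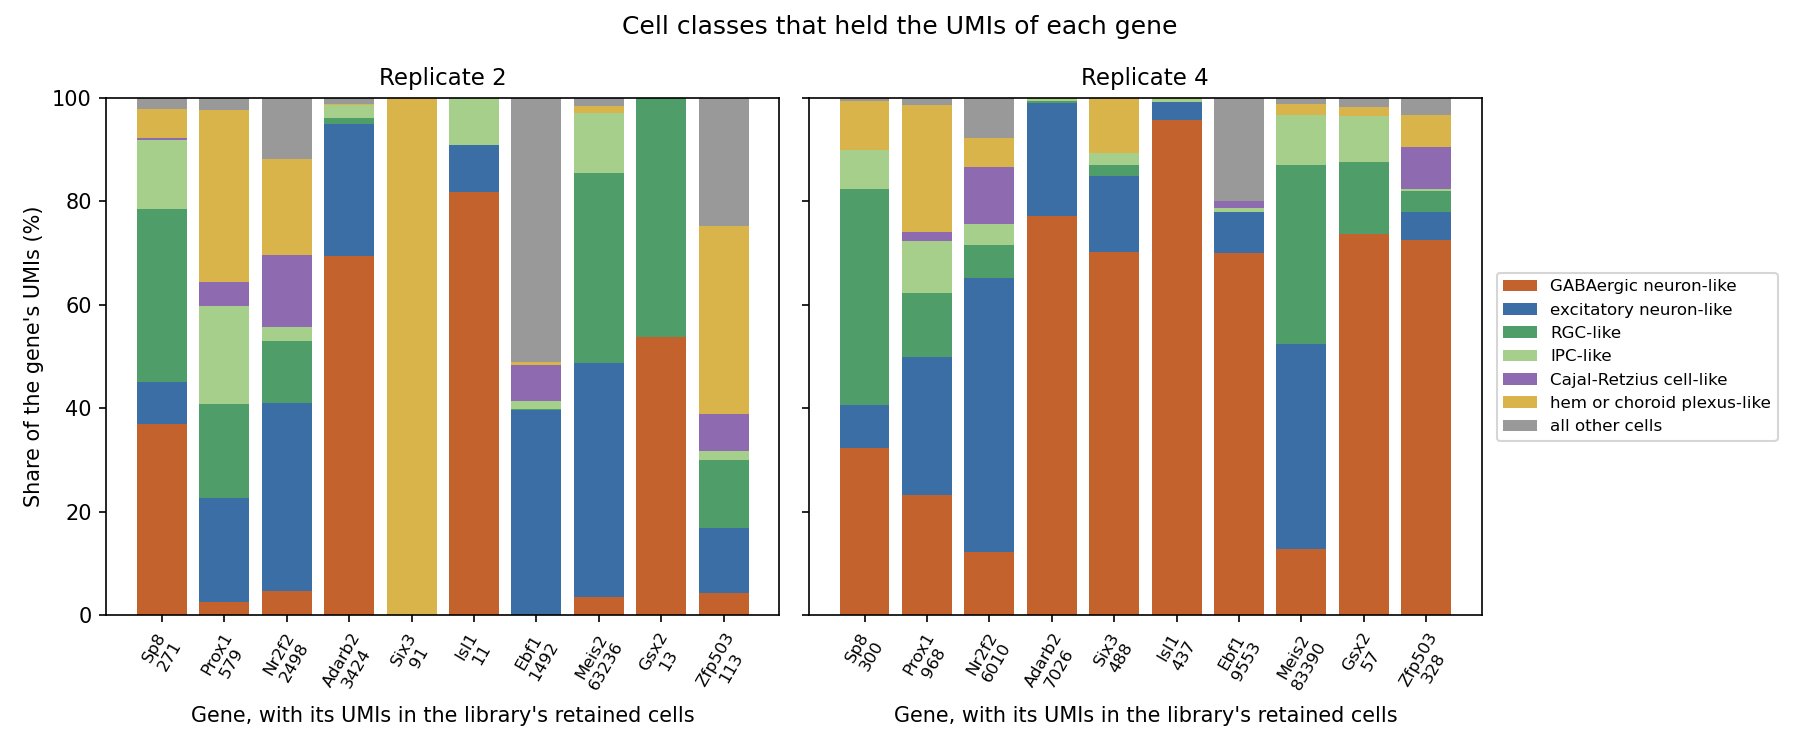
Share of each gene's UMIs, in percent, held by each cell class (stacked bars), with replicate 2 on the left, replicate 4 on the right and the total UMIs under each gene. GABAergic neuron-like cells held 69.5% and 77.2% of Adarb2 UMIs, while their share of Ebf1 UMIs went from 0.067% to 70.1% between the libraries.

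Levels are given as CPM, the UMIs of a gene per 1e+06 UMIs of the summed cells, first for the progenitor factors. Gsx2 (chr5:75075601-75077893) was at 3.93 CPM (7 UMIs) in GABAergic neuron-like cells of replicate 2 and at 12.3 CPM (42 UMIs) in those of replicate 4. No UMI of Gsx2 was found in 587 and 924 excitatory neuron-like cells, where a count of 0 allows a share of cells with a UMI of up to 0.626% and 0.398% (upper Clopper-Pearson limits). Against a floor of 3 UMIs in a library's excitatory neuron-like cells, Gsx2 was at least 26.9-fold higher in GABAergic neuron-like cells of replicate 2 and at least 96.4-fold in those of replicate 4. RGC-like cells, the pallial stem cells, held 6 and 8 Gsx2 UMIs. Meis2 (chr2:115861264-116067537) had no such restriction. It was at 3132 and 3069 CPM in RGC-like cells, at 1985 and 1919 CPM in IPC-like cells and at 1395 and 1407 CPM in excitatory neuron-like cells, with little spread between the libraries. The excitatory values mix unlike clusters, with means of 3149 and 2862 CPM in clusters of 83 and 344 cells and 353 CPM in 1 of 49 cells. No steady fall from stem cell to neuron is therefore read. In GABAergic neuron-like cells it was at 1246 and 3160.5 CPM, and this spread (2203 ± 1354, SD, n = 2) overlapped all 3 pallial classes. A UMI of Meis2 was in 98.1% and 98.8% of RGC-like cells but in 33.7% (95% Clopper-Pearson interval 23.7% to 44.9%) and 57.1% (50.5% to 63.6%) of GABAergic neuron-like cells. After thinning each cell to 5000 UMIs the shares were 96.1% and 98.2% against 29.6% and 56.2%, so the contrast was also present at equal depth. Intervals of this kind cover counting error only.

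Of the genes of CGE interneurons, Sp8 and Adarb2 were highest in GABAergic neuron-like cells, whereas Prox1 and Nr2f2 were highest elsewhere. Sp8 (chr12:118846288-118852578) was at 56.2 CPM (100 UMIs) and 28.5 CPM (97 UMIs) in GABAergic neuron-like, at 12.3 and 13.3 CPM in RGC-like, at 9.75 and 5.49 CPM in IPC-like and at 1.07 CPM in excitatory neuron-like cells of either library. Its order was therefore GABAergic, RGC, IPC and excitatory among these 4 classes in both libraries, and no UMI was found in meningeal, endothelial or microglia-like cells. The share of cells with an Sp8 UMI did not follow this order. It was 28.2% and 23.7% in RGC-like and 26.5% and 16.5% in GABAergic neuron-like cells, whose median depths were 32965 and 26896 against 21645 and 11886 UMIs. After thinning it was 6.86% and 5.74% in RGC-like, 16.0% and 12.4% in GABAergic neuron-like and 0.517% and 0.780% in excitatory neuron-like cells. Adarb2 (chr13:8202526-8768762) was at 1337 and 1590.4 CPM in GABAergic neuron-like, 42.7 and 65.3 CPM in excitatory neuron-like and 4.99 and 3.83 CPM in RGC-like cells. A thinned Adarb2 UMI was in 29.6% and 35.9% of GABAergic neuron-like cells, in 8.45% and 8.02% of excitatory neuron-like cells and in 1.96% and 0.604% of RGC-like cells.

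Nr2f2 (chr7:70351946-70366746) was the gene of this group with the broadest reach. Its highest level was in Cajal-Retzius cell-like cells, the earliest neurons of the marginal zone, at 599 and 849 CPM. It was at 287 and 386 CPM in meningeal cell-like, 206 and 137 CPM in hem or choroid plexus-like and 65.8 and 216 CPM in GABAergic neuron-like cells, and the 2 values of the last of these span both values of the hem or choroid plexus-like class. Excitatory neuron-like cells were at 44.3 and 136 CPM, and 1 excitatory cluster of 44 and 120 cells, led by Tafa1 and Slit3, carried 237 of 909 UMIs in replicate 2 and 1958 of 3186 in replicate 4. That cluster was at 107 and 643 CPM of Nr2f2 and also held Adarb2 at 23.0 and 308 CPM. The mean of Adarb2 was higher in an excitatory cluster of 83 cells led by Unc5d and Tfap2d, at 232 CPM (SD 2.36, n = 2). Prox1 (chr1:190118035-190170827) was highest in hem or choroid plexus-like cells at 85.7 and 97.3 CPM, above both values of every other named class. The cluster of that class also had all 9 RGC markers raised. In GABAergic neuron-like cells Prox1 was at 8.43 CPM (15 UMIs) in replicate 2 and 66.0 CPM (225 UMIs) in replicate 4. In RGC-like cells it was at 14.3 and 12.8 CPM, which lies between these values, and in IPC-like cells at 29.5 and 23.2 CPM.

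The striatal genes were set by replicate 4. Isl1 (chr13:116298270-116309688) was at 123 CPM (418 UMIs in 40 of 231 cells) in GABAergic neuron-like cells of replicate 4 and at 5.06 CPM (9 UMIs in 1 of 83 cells) in replicate 2. No Isl1 UMI was found in 209 and 342 RGC-like cells, and against 3 UMIs in those the gene was at least 12.5-fold higher in GABAergic neuron-like cells of replicate 2 and at least 384-fold in those of replicate 4. Ebf1 (chr11:44618100-45008096) was at 1964 CPM in 35 of 231 cells of replicate 4 and at 1 UMI in replicate 2. The latter depended on the processing, since the class of replicate 2 held 287 Ebf1 UMIs with doublets kept (131 CPM) and at Leiden resolution 0.5 (136 CPM). It was no gene of GABAergic cells alone. Endothelial cell-like cells were at 1185 and 1287 CPM, Cajal-Retzius cell-like cells at 180 and 153 CPM, and the microglia-like cluster, in which 6 of 7 mural cell markers were also raised, at 974 and 2475 CPM. Zfp503 (chr14:21983959-21989601) was at 2.81 and 69.8 CPM in GABAergic neuron-like, 37.4 and 23.0 CPM in endothelial cell-like and 0.682 and 0.767 CPM in excitatory neuron-like cells. Six3 (chr17:85613608-85626191) was at 0 and 101 CPM in GABAergic neuron-like and at 40.4 and 21.3 CPM in hem or choroid plexus-like cells. Six3 shares its locus with the antisense gene Six3os1, which was at 61.3 and 35.2 CPM in the hem or choroid plexus-like class and at 0 and 64.8 CPM in the GABAergic class. Six3 was thus present in dorsal midline cells of both libraries but in GABAergic neuron-like cells of replicate 4 alone.

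**Figure D2:**
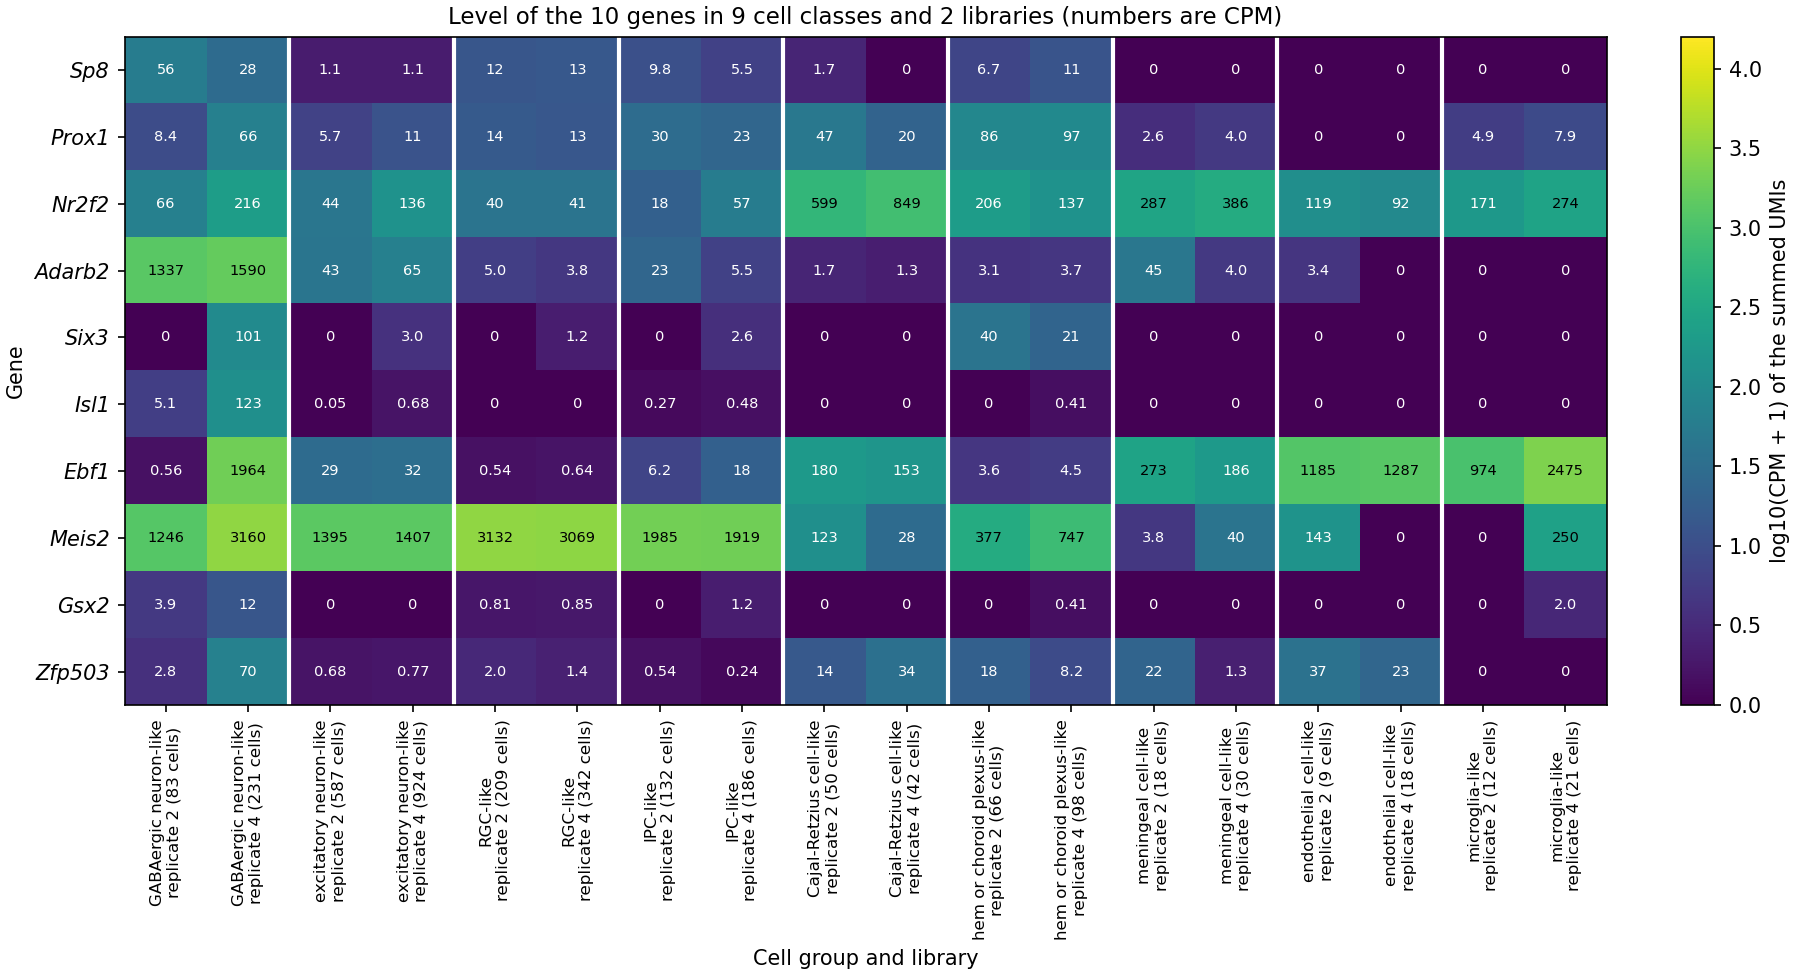
Level of the 10 genes (rows) in 9 cell classes, with 1 column per class and library, the number of cells in brackets and the CPM printed in each field. Colour is log10(CPM + 1), and the GABAergic columns of replicate 2 and replicate 4 differ most for Six3, Isl1, Ebf1 and Zfp503.

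GABAergic neuron-like cells were next compared with excitatory neuron-like cells, their neighbours in the cortex, and with RGC-like cells. Against excitatory neuron-like cells 9 of the 10 genes could be tested and 6 rose, while over all 14572 genes tested 16.6% were called at an adjusted p-value under 0.05 (edgeR's quasi-likelihood test with Benjamini-Hochberg adjustment, as for all adjusted p-values here). The median log2 fold change of the 9 genes was 4.90, which is the value of Ebf1, beside -0.02 over all genes. It rested on replicate 4, as the median of the 9 log2 ratios was 0.38 in replicate 2 and 4.40 in replicate 4, and it was 2.88 over 8 genes without striatal projection neuron-like cells. Sp8 rose by 5.14 on the log2 scale (SE 0.45, edgeR adjusted p = 2.83e-05) and Adarb2 by 4.65 (SE 0.60, edgeR adjusted p = 0.000221), each in both libraries. Isl1, Zfp503 and Prox1 were also higher, with log2 fold changes of 7.23 (edgeR adjusted p = 0.00469), 5.56 (edgeR adjusted p = 0.00263) and 2.12 (edgeR adjusted p = 0.0206). Isl1 passed the filter on low counts through GABAergic neuron-like cells alone, in this comparison and the next, so its call and the counts that hold it are given as descriptions. Nr2f2 (0.54, SE 0.59, edgeR adjusted p = 0.623) and Meis2 (0.54, SE 0.87, edgeR adjusted p = 0.765) were not called, and Gsx2 was too sparse to be tested. Six3, at a log2 fold change of 4.94, had an edgeR adjusted p of 0.0522. It was called in 8 of 12 alternatives, with log2 fold changes over all 12 of 3.48 to 8.07, and it had no UMI in either class of replicate 2.

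The call of Ebf1 rested on the striatal projection neuron-like cells of replicate 4. Its log2 fold change was 4.90 (edgeR adjusted p = 0.0409), and the call was lost in 4 of 13 alternatives. With the library as a block, 1 of these, the edgeR adjusted p was 0.0564. The 2 libraries pointed in opposite directions, with a log2 ratio of -5.10 in replicate 2 and 5.73 in replicate 4. The former rested on 1 UMI, and with doublets kept or at Leiden resolution 0.5 the class was at 131 or 136 CPM in replicate 2, above the 28.8 CPM of excitatory neuron-like cells in the main analysis. Without striatal projection neuron-like cells, an alternative added after seeing the data, Ebf1 was lower in GABAergic neuron-like cells (log2 fold change -5.49, edgeR adjusted p = 0.000362). Sp8, Adarb2 and Prox1 did not depend on these cells, with log2 fold changes of 5.22, 4.77 and 2.41 without them. For Prox1, Isl1 and Zfp503 the libraries gave the same sign but unequal sizes, with log2 ratios of 0.36 and 2.34 for Prox1, 3.55 and 6.68 for Isl1 and 1.44 and 5.76 for Zfp503. The Prox1 call was lost in 2 of 13 alternatives, with adjusted p-values up to 0.126.

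Against RGC-like cells 8 of 9 tested genes rose, Isl1 with 0 UMIs in RGC-like cells among them, in a comparison in which 42.6% of 14572 genes were called. The median log2 fold change of the 9 was 4.48, also with Isl1 set at its bound, beside -0.10 over all genes. By library the median log2 ratio was 0.43 and 5.28, and without striatal projection neuron-like cells the median over 8 genes was 1.99. Adarb2 rose by 8.38 (SE 0.74, edgeR adjusted p = 4.69e-06), Sp8 by 1.70 (SE 0.38, edgeR adjusted p = 0.00414) and Nr2f2 by 1.82 (SE 0.61, edgeR adjusted p = 0.0296). The log2 ratios in replicates 2 and 4 were 2.19 and 1.06 for Sp8 and 0.75 and 2.39 for Nr2f2, of 1 sign but unequal size. Meis2 did not pass the test (-0.50, SE 0.87, edgeR adjusted p = 0.685). Prox1 was called at 1.54 (SE 0.57, edgeR adjusted p = 0.0438), but its log2 ratio was -0.70 in replicate 2 and 2.32 in replicate 4. The call was lost in 6 of 12 alternatives, with log2 fold changes down to 0.51 and adjusted p-values up to 0.540. Without striatal projection neuron-like cells 4 of 8 tested genes, Sp8, Prox1, Nr2f2 and Adarb2, were called, a share near the 40.2% of all 14567 genes called in that fit, and Six3, Ebf1 and Zfp503 were not, with edgeR adjusted p-values of 0.0530, 0.924 and 0.0795. Isl1 then had too few UMIs to be tested. Between RGC-like and excitatory neuron-like cells 3 of 9 tested genes changed, where 46.1% of all genes were called. Sp8 was higher in RGC-like cells by 3.44 (SE 0.43, edgeR adjusted p = 5.62e-05), and Adarb2 (-3.73, edgeR adjusted p = 0.000405) and Ebf1 (-5.72, edgeR adjusted p = 0.0266) were lower. The median of the 9 genes was -1.27, or -1.11 with Isl1 at its bound, beside 0.05 over all genes, and by library it was 0.00 and -1.29. With the library as a block Isl1 was called as well (-4.21, edgeR adjusted p = 0.0214), though it had 0 UMIs in RGC-like and 17 in excitatory neuron-like cells.

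Within the 314 GABAergic neuron-like cells the genes fell into sub-clusters made without them. These values are descriptions with no test. The 2 larger MGE interneuron-like sub-clusters, numbered 0 and 2, held 54 cells of replicate 2 and 81 of replicate 4 and had almost none of the 10 genes. Meis2 was between 1.51 and 12.2 CPM there, Adarb2 between 3.02 and 33.0 CPM, and Six3, Isl1, Ebf1 and Zfp503 had no UMI in either library. Nr2f2 was the exception, at 73.7 and 85.5 CPM in sub-cluster 0 and 43.8 and 59.0 CPM in sub-cluster 2. Barcodes left out by the filters, which can carry free RNA, held Nr2f2 at 49.2 and 123 CPM. They held Meis2 at 1310.4 and 1351 CPM, beside the 1.51 to 12.2 CPM of these sub-clusters. The part of free RNA in the level of Nr2f2 there was not tested. A further MGE interneuron-like sub-cluster of 11 cells, all of replicate 4 and led by Sst and Npy, was unlike them. It had 426 UMIs of Adarb2 (2845 CPM), 223 of Nr2f2 (1489 CPM) and 34 of Prox1 (227 CPM) beside 18 of Lhx6, and no Sp8 UMI.

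Sub-clusters 3 and 4, which earned no sub-class name, carried most Adarb2 and Sp8. Sub-cluster 4, of 5 and 29 cells and led by Pdzrn3 and Vwc2, had Adarb2 at 15207 and 10860.3 CPM, Nr2f2 at 525 and 708 CPM and Sp8 at 187 and 120 CPM. Prox1 had 2 and 57 UMIs there, and no Isl1 or Zfp503 UMI was found. Sub-cluster 3, of 17 and 10 cells and led by Ccnd2, Etv1 and Zfp385b with Pax6 and Tshz1 among its 10 leading genes, differed from it in several of these genes. Meis2 was at 6019 and 5012 CPM in sub-cluster 3 and at 0 and 1276 CPM in sub-cluster 4. Sub-cluster 3 had Sp8 at 228 and 87.6 CPM and Adarb2 at 3998 and 813 CPM, while its Nr2f2 was at 0 and 223 CPM. Sp8 and Adarb2 therefore occurred in both, Nr2f2 in both libraries of sub-cluster 4 only, and Meis2 in both libraries of sub-cluster 3 only. The dividing precursor-like sub-cluster, of 6 and 39 cells, held Gsx2 at 29.9 CPM (5 of the 13 UMIs in replicate 2) and 42.4 CPM (33 of the 57 in replicate 4), the highest level of any sub-cluster in replicate 4. It also held Meis2 at 2926 and 3398 CPM and Sp8 at 125 and 37.2 CPM.

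Both striatal projection neuron-like sub-clusters expressed Meis2, and they differed in the other striatal genes. Sub-cluster 5, of 1 and 35 cells and led by Mgat4c and Rarb, had 6691 UMIs of Ebf1 (12439 CPM), 358 of Isl1 (666 CPM) and 149 of Zfp503 (277 CPM) in replicate 4. A UMI of Ebf1 was in 32, of Isl1 in 33 and of Zfp503 in 31 of its 35 cells, and of Six3 in 3. Sub-cluster 6, of 26 cells of replicate 4, was led by Slit3, Six3os1 and Rasgef1b with Drd2 among its 10 leading genes. Six3os1 took part in the clustering and Six3 did not. Sub-cluster 6 had 250 UMIs of Six3 (637 CPM, 20 of 26 cells) but only 2 of Ebf1 (5.10 CPM) and 18 of Isl1 (45.9 CPM, 4 of 26 cells). Zfp503 was at 133 CPM there, and Meis2 was at 7727 CPM, beside 7490.1 CPM in sub-cluster 5. Adarb2 was not absent from these cells, at 645 CPM (14 of 35 cells) and 1213 CPM (8 of 26 cells). The single striatal projection neuron-like cell of replicate 2 had 55 UMIs of Meis2, 9 of Isl1, 4 of Zfp503 and none of Ebf1 or Six3.

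**Figure D3:**
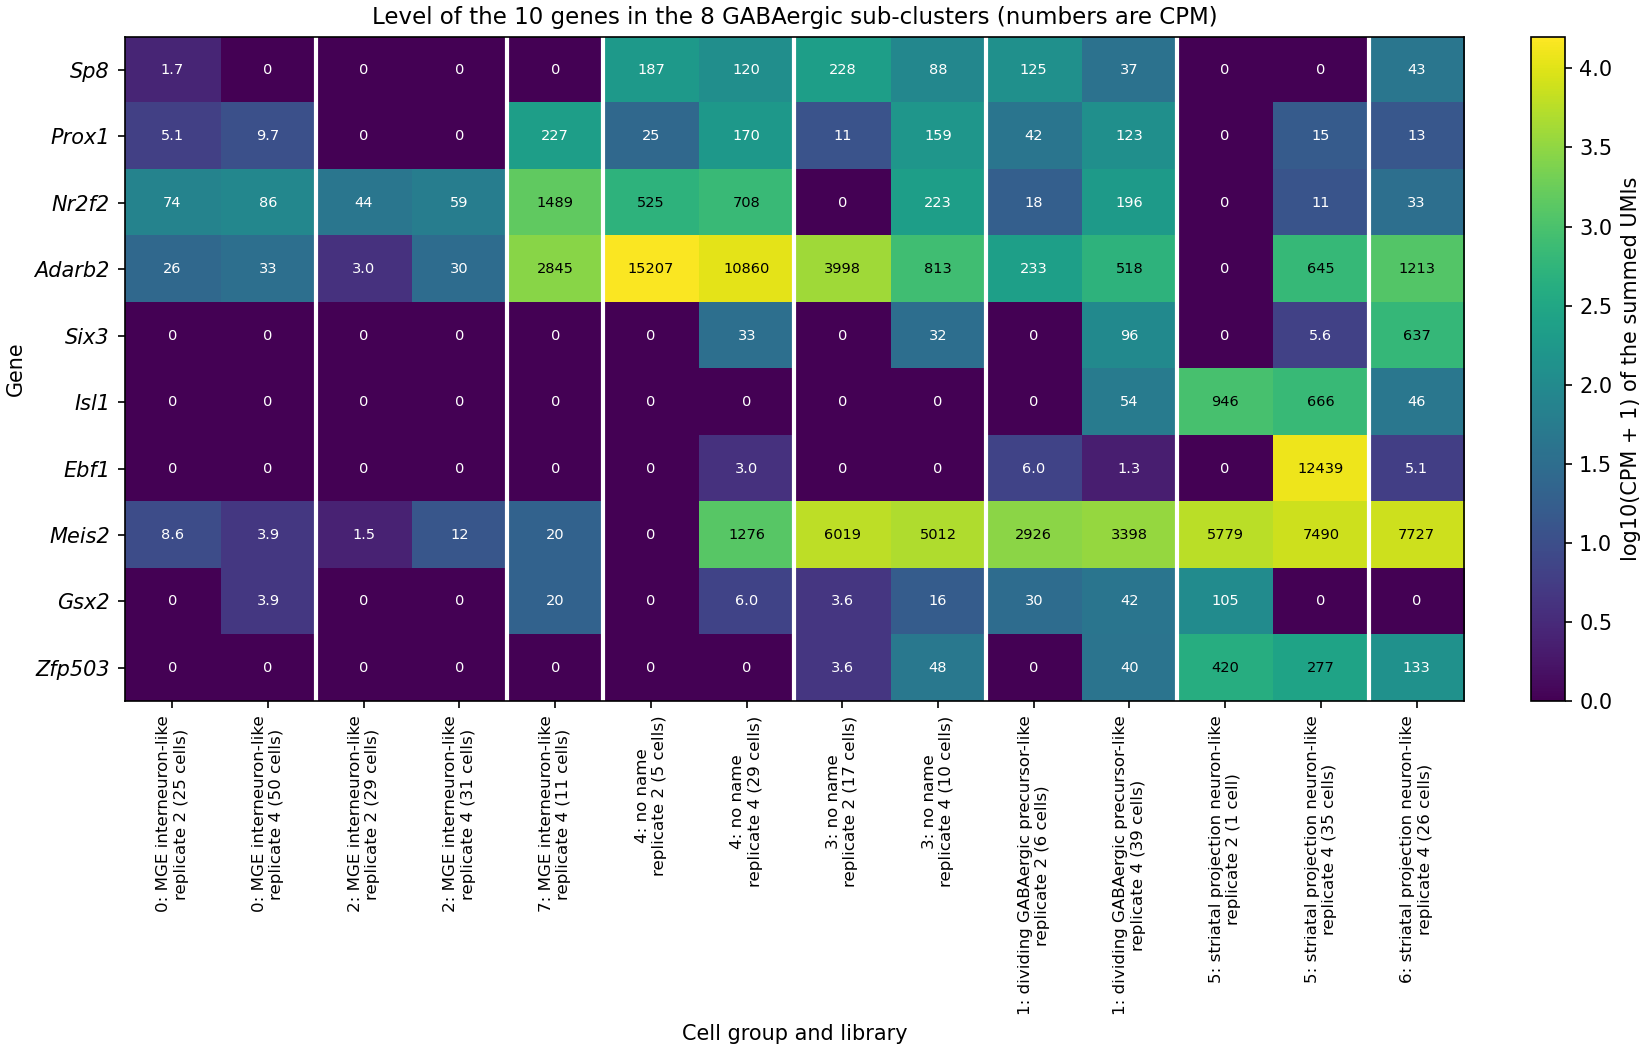
Level of the 10 genes (rows) in the 8 GABAergic sub-clusters, with 1 column per sub-cluster and library, the number of cells in brackets and CPM printed in each field on a log10(CPM + 1) colour scale. In replicate 4, Ebf1 reached 12439 CPM in sub-cluster 5 and 5.10 CPM in sub-cluster 6, and Six3 5.58 and 637 CPM.

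A split that used none of the 10 genes was made with Lhx6, the factor that marks MGE-derived interneurons. GABAergic neuron-like cells outside the dividing sub-cluster were divided into those with at least 1 Lhx6 UMI (53 and 73 cells) and those with none (24 and 119 cells). Meis2 differed widely between these groups in both libraries. It was at 4.06 CPM (5 UMIs) and 4.56 CPM (5 UMIs) in Lhx6-positive cells and at 4532 CPM (1721 UMIs) and 5296 CPM (8124 UMIs) in Lhx6-negative cells. The log2 fold change was -10.08 (SE 0.35, edgeR adjusted p = 0.000359). Sp8 had 1 and 0 UMIs in Lhx6-positive cells against 78 (205 CPM) and 68 (44.3 CPM) in Lhx6-negative cells. Over both libraries the ratio was 178 with a counting interval of 31.4 to 7063, and the fitted log2 fold change was -7.65 (SE 1.27, edgeR adjusted p = 0.0400). Of 7 genes tested, these 2 were called lower in Lhx6-positive cells, where 184 of 9437 genes (1.95%) were called and 1143 had an unadjusted p under 0.05. Meis2, Sp8, Isl1 and Zfp503 passed the filter on low counts through the Lhx6-negative cells alone, so a difference in that direction was favoured by the filter. Their calls and p-values, here and in the alternatives, the count and the median are descriptions that support nothing. The median log2 fold change of the 7 genes was -7.65, or -6.43 with Isl1 and Zfp503 at their bounds, beside -0.0014 over all genes, and by library it was -3.68 and -4.62.

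Isl1 and Zfp503 had no UMI in Lhx6-positive cells of either library and 385 and 212 UMIs in Lhx6-negative cells. Of these, 9 and 5 UMIs were of replicate 2 and 376 and 207 of replicate 4. Against 3 UMIs in the Lhx6-positive cells of a library, Isl1 was at least 9.73-fold higher in Lhx6-negative cells of replicate 2 and at least 89.6-fold in replicate 4, and Zfp503 at least 5.41-fold and at least 49.3-fold. Their edgeR adjusted p-values were 0.0842 and 0.0903, or 0.000320 and 0.00111 with the library as a block. Nothing is read from these values, as the filter on low counts was passed through the Lhx6-negative cells alone. Six3 and Ebf1, which did not pass the filter on low counts, were also at 0 UMIs in Lhx6-positive cells, against 268 and 6694 UMIs in Lhx6-negative cells that all lay in replicate 4. Adarb2 was lower in the Lhx6-positive cells of each library, at 13.8 against 6118 CPM and 368 against 3009 CPM, but was not called (log2 fold change -4.53, SE 1.28, edgeR adjusted p = 0.182). Without the 11-cell sub-cluster with Lhx6 and Adarb2 UMIs, an alternative added after seeing the data, the log2 fold change of Adarb2 was -7.84 (edgeR adjusted p = 0.00196), but as those cells were chosen for holding both genes, a larger difference was built into the choice. Nr2f2, at 58.4 against 111 CPM and 179 against 254 CPM, and Prox1, at 2.44 against 13.2 CPM and 32.8 against 60.6 CPM, had edgeR adjusted p-values of 0.776 and 0.703.

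The Lhx6-negative cells were shallower, with medians of 12662.5 and 10708 UMIs against 23505 and 13873 UMIs, and with thinning to 5000 UMIs before the split Adarb2 was called as well (-3.98, edgeR adjusted p = 0.0368). Markers of other lineages moved with the split. The summed level of 12 striatal projection neuron markers was 3247 and 5326 CPM in Lhx6-negative and 653 and 676 CPM in Lhx6-positive cells, with 5 and 0 against 7 and 4 of the 12 at 0. The summed level of 9 CGE interneuron markers was low in both, at 374 and 113 CPM against 140 and 73.9 CPM. Vip and Sncg were at 0 in all 4 sums, and Calb2, Cxcl14 and Scgn were at 0 in both Lhx6-positive sums. The summed level of the 11 MGE markers, Lhx6 among them, was 1254 and 1677 CPM in Lhx6-negative and 12476 and 12582 CPM in Lhx6-positive cells. Their part in the differences was not tested. As descriptions only, the log2 fold changes of Meis2 and Sp8 without striatal projection neuron-like cells were -9.42 and -7.91 (edgeR adjusted p = 0.00553 and 0.0102). Sp8 lost its call in 3 other alternatives (edgeR adjusted p = 0.0713, 0.0539 and 0.0539).

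**Figure D4:**
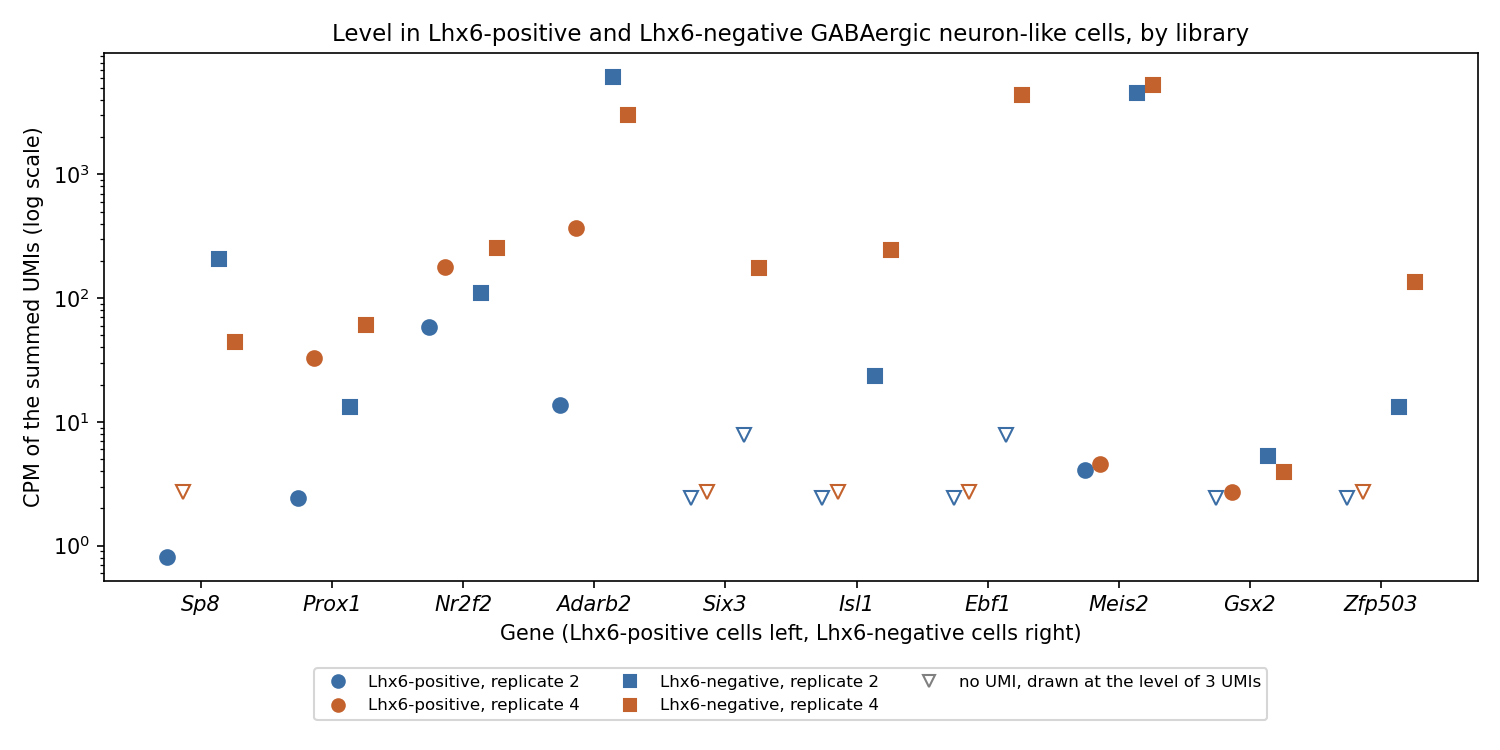
CPM on a log axis of each gene in Lhx6-positive (circles) and Lhx6-negative (squares) GABAergic neuron-like cells, with replicate 2 in blue and replicate 4 in orange and open triangles for sums with no UMI, drawn at the level of 3 UMIs. Meis2 was at 4.06 and 4.56 CPM against 4532 and 5296 CPM, and Nr2f2, whose groups overlapped, was at 58.4 and 179 against 111 and 254 CPM.

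The genes were then followed within single GABAergic neuron-like cells. For each pair, the number of cells with a UMI of both was set beside the number that would have both if the genes were unrelated within each library. Cells are not replicates, so these counts are descriptions. The larger MGE interneuron-like sub-clusters, with almost none of the genes but Nr2f2, enter the numbers if unrelated. An excess over such a number can therefore come from shared absence there. No UMI of any of the 10 genes was found in 26 of 83 cells of replicate 2 and 43 of 231 cells of replicate 4, and 3 or more genes were found in 25 and 125 cells. The strongest association was among Isl1, Ebf1 and Zfp503. Isl1 and Ebf1 were found together in 31 cells where 6.07 would hold both if unrelated, a ratio of 5.10, Isl1 and Zfp503 in 36 cells against 8.86 and Ebf1 and Zfp503 in 29 against 7.75. After thinning to 5000 UMIs the ratios were 4.84, 4.18 and 3.90, beside 5.10, 4.07 and 3.74 before it. Apart from 1 cell with Isl1 and Zfp503, all these cells were of replicate 4.

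Six3 was not part of this set. It was found with Ebf1 in 4 cells against 6.67 if unrelated and with Isl1 in 7 against 7.62, although these genes share a lineage. Within the 61 striatal projection neuron-like cells of replicate 4 the separation was plainer. Six3 was in 23 of them, Isl1 or Ebf1 in 39, both kinds in 5 where 14.7 would hold both if unrelated, and neither in 4. Zfp503 was found with either kind, as 17 cells held it with Six3, against 9.71 if unrelated. The latter number counts MGE interneuron-like cells, which held neither gene, so no excess is read from it. Meis2 was common to all of them. Every cell with a UMI of Six3 (44 cells), Isl1 (41), Ebf1 (36) or Zfp503 (53) also had a Meis2 UMI, which is the largest overlap these cells allowed.

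Sp8 kept apart from Isl1, Ebf1 and Zfp503. It shared no cell with Isl1 (6.85 if unrelated) or Zfp503 (8.92 if unrelated) and 1 with Ebf1 (6.02 if unrelated), and thinning left 0 cells for all 3 pairs. Replicate 2 held only 9 Isl1, 1 Ebf1 and 5 Zfp503 UMIs in these cells, so the separation rests almost wholly on replicate 4. With Six3 it shared 11 cells against 7.24 if unrelated, all of replicate 4, and 7 against 3.73 after thinning. MGE interneuron-like cells, with no Six3 UMI and almost no Sp8 UMI, enter the numbers if unrelated, so no excess is read. Sp8 shared cells with Adarb2 and Prox1 instead, in a class in which no sub-cluster earned the CGE interneuron-like name. Of 60 cells with Sp8, 47 (78.3%) had Adarb2, against 22.1 cells if unrelated, and 25 had Prox1 against 10.8. With Nr2f2 it shared 34 cells against 22.8, but the libraries differed, with 5 against 6.89 in replicate 2 and 29 against 15.96 in replicate 4. For Sp8 and Adarb2 there were more cells than if unrelated in each library, with 18 cells against 7.16 in replicate 2 and 29 against 14.97 in replicate 4. Sp8 was found with Meis2 in 48 cells against 29.1, and in 17 against 7.42 in replicate 2. Nr2f2 shared 3 cells with Zfp503 against 22.0, 4 with Isl1 against 17.1 and 54 with Meis2 against 64.2. Of the 123 cells with Nr2f2, 45 were of MGE interneuron-like sub-clusters 0 and 2, where the part of free RNA in its level was not tested. Those 45 cells enter these counts and the numbers if unrelated, so nothing is read from the Nr2f2 values.

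Adarb2 did not divide the lineages so sharply. It was found with Meis2 in 82 cells against 61.1, and with Isl1, Ebf1 and Six3 in 14, 16 and 19 cells against 16.1, 14.1 and 17.3, ratios between 0.87 and 1.13. Counted by group, 51 of 83 cells of replicate 2 and 149 of 231 of replicate 4 had a UMI of Sp8, Prox1, Nr2f2 or Adarb2, 2 and 81 had one of Six3, Isl1 or Ebf1, and 0 and 50 had both kinds. RGC-like cells gave other counts for the genes with UMIs there. Nr2f2 had a mean of 40.3 CPM (SD 0.374, n = 2) in them, under the 49.2 and 123 CPM of barcodes left out by the filters. Nothing is read from its pairs in these cells either. Sp8 and Nr2f2 were together in 5 RGC-like cells where 22.2 would hold both, at 3 against 11.6 in replicate 2 and 2 against 10.7 in replicate 4. Prox1 and Nr2f2 were together in 34 RGC-like cells against 14.1, and Sp8 and Prox1 in 31 against 22.9. After thinning, 0 RGC-like cells held both Sp8 and Nr2f2 against 2.89, too few to carry the comparison.

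**Figure D5:**
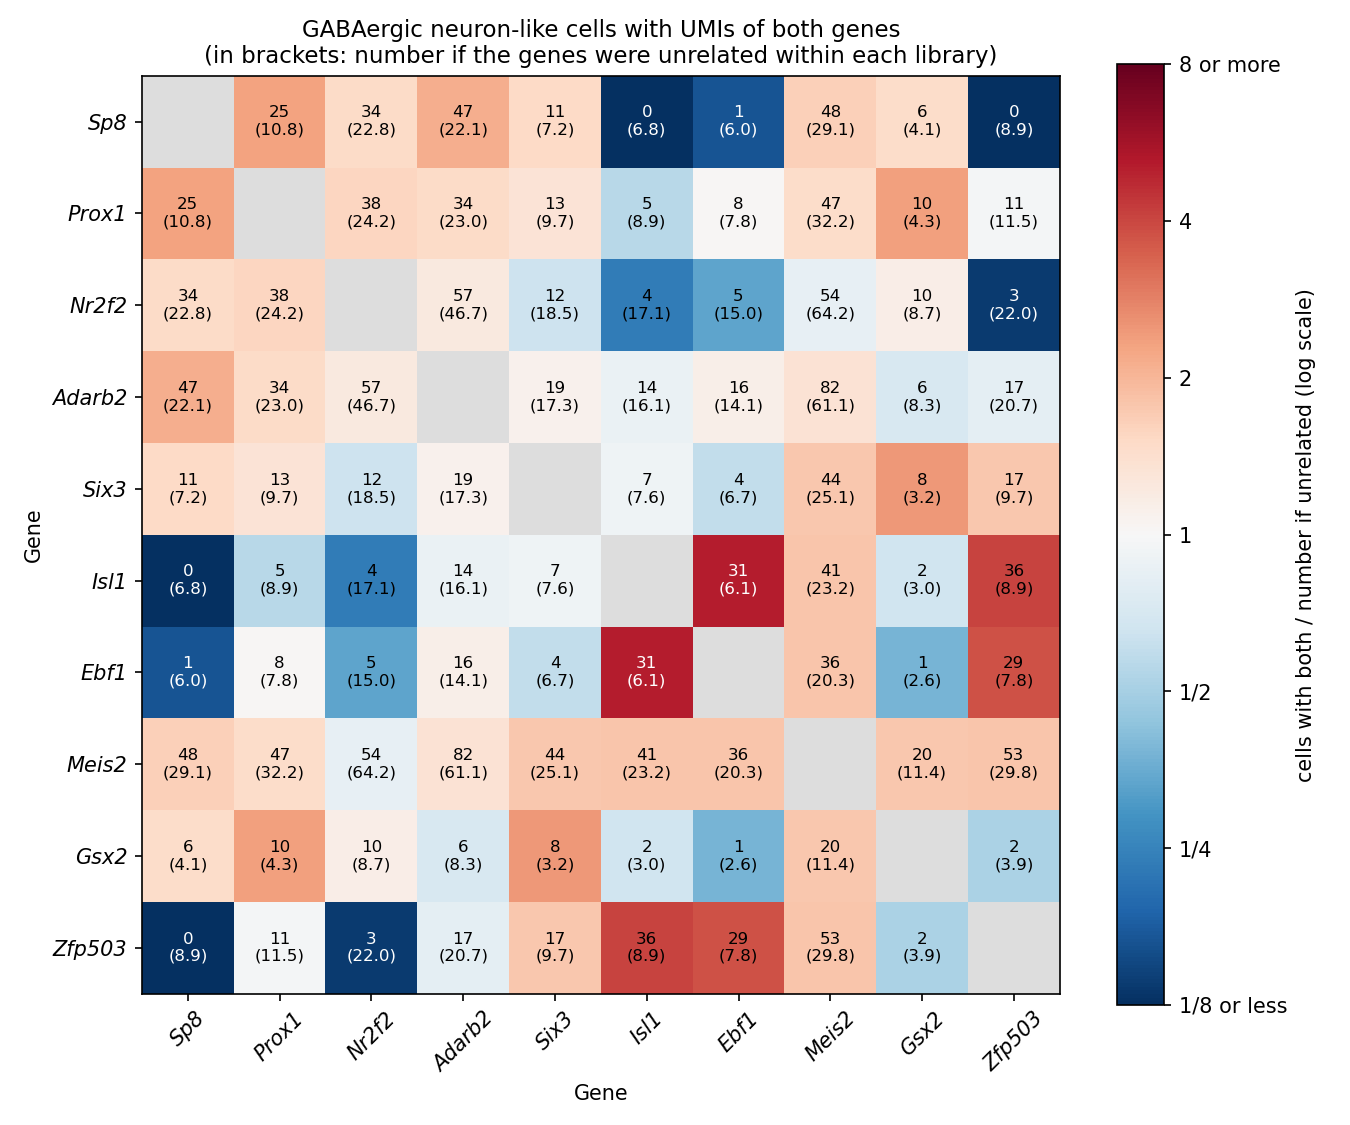
GABAergic neuron-like cells of both libraries with UMIs of both genes of a pair, and in brackets the number if the genes were unrelated within each library. Colour is the ratio of the 2 on a log scale, red for more and blue for fewer cells than if unrelated, with Isl1 and Ebf1 at 5.10 and Sp8 with Isl1 or Zfp503 at 0 cells.

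The paralogues and binding partners of the 10 genes, a list of 18, went both up and down. Of 15 tested, 3 rose and 2 fell in GABAergic against excitatory neuron-like cells, where 16.6% of all genes were called, with a median log2 fold change of -0.27. Sp9, the closest relative of Sp8 and a factor of LGE- and MGE-derived neurons, rose by 7.54 (SE 0.72, edgeR adjusted p = 2.90e-05), and the EBF family member Ebf3 fell by 2.29 (SE 0.72, edgeR adjusted p = 0.0446). Against RGC-like cells, where 42.6% of all genes were called, a similar share of 7 of 15 rose and none fell, led by Sp9 (8.94, edgeR adjusted p = 9.05e-06). Between RGC-like and excitatory neuron-like cells 6 of 15 changed, a share near the 46.1% of all genes. Of these 1 rose, the co-repressor Tle1 (0.84, edgeR adjusted p = 0.0398), and 5 fell, with Ebf3 changing most (-3.26, edgeR adjusted p = 0.000631). In the Lhx6 split 2 of 12 were called, beside 1.95% of all genes, both lower in Lhx6-positive cells. Meis1, the close relative of Meis2, was lower (log2 ratio -5.14, SE 0.39, edgeR adjusted p = 0.00481), as was the co-repressor Tle4 (-2.47, SE 0.41, edgeR adjusted p = 0.0400). Meis1 also rose against excitatory neuron-like cells (3.29, SE 0.60, edgeR adjusted p = 0.00182), where Meis2 was not called, and the difference between the paralogues was not tested. Tle4 and this value of Meis1 were named after their values were seen.

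The genes whose levels were most like those of each gene were found over 18 sums of cell classes and libraries and 13283 genes, by Pearson's correlation of log2(CPM + 10). These sums share 2 libraries, so the values are descriptions. For Nr2f2 the closest was B130024G19Rik (r = 0.961), for Adarb2 Gm44129 (0.951), for Sp8 AI197445 (0.907) and Pou3f4 (0.906), and for Meis2 G630016G05Rik (0.904). For Prox1 they were D030055H07Rik (0.847) and Prox1os (0.822), followed by Six3 (0.815), and for Six3 they were 4833427G06Rik (0.892) and Six3os1 (0.860). Ebf1 was most like Cdc42 (0.970), and Zfp503 most like Slc25a21 (0.911). Striatal projection neuron-like and endothelial cell-like cells were too few in replicate 2 to form such sums. No likeness value therefore includes these classes, those of Ebf1, Zfp503, Six3 and Meis2 among them, and Isl1 and Gsx2 did not pass the filter on low counts.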

How the data were processed

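Papain-dissociated E14.5 dorsal telencephalon was profiled by droplet single-cell RNA-seq (10x Genomics 3' kit). The deposited matrices hold raw UMI counts per gene and barcode, which the authors made with Cell Ranger 7.0.0 on mm10 and did not normalise. Replicate 2 held 1712 barcodes with 40267872 UMIs and replicate 4 held 2589 with 49422007. Barcodes with fewer than 1000 genes or more than 10% mitochondrial UMIs were left out, as were doublets called by Scrublet (12 and 48, 0.991% and 2.44%). Cells were clustered with scanpy 1.11.5 (2000 variable genes, 30 components, 20 neighbours, Leiden resolution 1), leaving out the 10 genes and 18 paralogues and partners. A cluster was named from at least 3 raised markers (log2 ratio to the median cluster of at least 1, with 10 CPM added, in at least 25% of cells) and its leading genes. The difference from any published naming may come from this rebuilt annotation. The members and lists were chosen with earlier results of these data known.

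UMIs were summed per class and library, with at least 10 cells each, and tested with edgeR 4.0.16 (quasi-likelihood, TMM, filterByExpr, R 4.3.3, two-sided) with Benjamini-Hochberg adjustment over all genes tested and calls at 0.05. The fit of classes held 8 classes of 2 libraries, and the Lhx6 split was a fit of its own without Lhx6. Sums of the same number come from the same library, which pairs them. Deviations of such sums from their class means correlated with a median r of 0.0762 over 28 pairs, and with 0.149 in the Lhx6 split. Fits were tested on simulated data. Shares carry 95% Clopper-Pearson intervals, and floors are 3 UMIs. Genes named were the 10 members, the called paralogue or partner of largest fold in each direction and, for each member, up to 3 genes of most alike level. Sequences and places are RefSeq's on GRCm38.p6. DESeq2 1.42.0, other filters, clusterings, gates and a library block were the alternatives.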

Additional observations from a re-analysis of the deposited data

Results flagged for a closer look

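Barcodes left out by the cell filters, 513 in replicate 2 and 666 in replicate 4, also held UMIs of all 10 genes, and 7 of these had more than 3 UMIs in each library's left-out barcodes. Over both libraries Meis2 was at 1335 CPM there, Ebf1 at 135 CPM, Nr2f2 at 94.3 CPM and Adarb2 at 65.1 CPM. Prox1 was at 15.8 CPM, Sp8 at 6.37 CPM and Zfp503 at 4.35 CPM. These barcodes were given no class, and no comparison used them.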

How the results depend on the processing

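Levels in GABAergic neuron-like cells moved by less than the spread between libraries in all 60 alternatives, a wide measure for Ebf1, which in replicate 2 went from 0.562 CPM to 131 CPM with doublets kept and 136 CPM at Leiden resolution 0.5, and of 415 alternative fold changes of the 10 genes 363 kept both direction and side of the threshold, 26 gained a call, 19 lost one and 7 changed sign. For GABAergic against RGC-like cells, 4 of 8 tested members were called without striatal projection neuron-like cells (40.2% of all genes), against 8 of 9. For RGC-like against excitatory neuron-like cells, 8 of 10 were called with all genes kept (29.3% of all genes) and 5 of 10 at either Leiden resolution of 0.5 or 2 (49.3% and 50.2%), against 3 of 9. In the Lhx6 split, 8 were called with all genes kept (4.84% of all genes), and 1 each at most 5% mitochondrial UMIs (1.40%), at Leiden resolution 2 and with the members among the clustering genes (both 1.52%), against 2, the call of Sp8 being lost (edgeR adjusted p = 0.0713, 0.0539 and 0.0539). With the library as a replicate block 4 were called there (4.18%), of which Isl1 and Zfp503 had no UMI in Lhx6-positive cells, and the other counts, in the order of the report, were 6 (18.3%), 8 (44.2%) and 4 (48.0%). Over all genes the Lhx6 split gave 887 calls with all genes kept, 394 with the block and 60 after thinning, against 184. The cause of these shifts was not tested.

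Without striatal projection neuron-like cells the log2 fold change of Ebf1 against excitatory neuron-like cells was -5.49 and that of Meis2 -0.16. Without replicate 4, Ebf1 was at -5.10 and Prox1 against RGC-like cells at -0.70, and without replicate 2 they were at 5.73 and 2.32. Six3 in RGC-like against excitatory neuron-like cells, not called, was at 1.33, 1.47, 0.72 and 1.70 with 5% mitochondrial UMIs, doublets kept and Leiden resolutions 0.5 and 2, and at 1.78 without the excitatory cluster led by Tafa1 and Slit3. The 3 planned contrasts between MGE, CGE and striatal sub-classes could not be run under any setting. Depth limits Gsx2, with 13 and 57 UMIs in all.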
